A study of Mus musculus with 33 samples.

Results

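The activator protein 1 (AP-1) transcription factor genes Fos, Fosb, Fosl2, Jun, Junb, Jund, Atf3 and Batf were described across CD8 T cells sorted from the skin of mice with allergic contact dermatitis. These 8 genes were taken by symbol from both read count tables, 8 of 19449 gene rows in all, and every one of them passed the filter on low counts in both experiments. The contact allergen was dinitrofluorobenzene (DNFB), a hapten, and the series followed how a topical glucocorticosteroid (TA, 0.01%), set against its acetone vehicle, acts on CD69+CD103+ resident memory T cells (TRM). In the first experiment (17 libraries), TRM of Nur77GFP mice were sorted. At day 0, just before DNFB retest, GFP-negative cells gave 3 libraries after acetone and 2 after TA. At day 1, 24 hours after retest, GFP-negative and GFP-positive cells gave 2 libraries each for acetone and for TA. At day 6, 144 hours after retest, GFP-negative cells gave 2 libraries for acetone and 2 for TA. In the second experiment (16 libraries, 2 per group), cells came from wild-type C57BL/6 mice. At day 2 after DNFB challenge the 4 combinations of CD69 and CD103 were sorted without treatment, and at day 11 and day 42 CD69+CD103+ TRM after acetone or TA. All mice of both experiments were DNFB allergic, and the labels give neither their age and sex nor how many animals went into a sort. In Nur77GFP mice, GFP follows the regulatory sequence of Nr4a1 (Nur77) and marks a recent signal through the T cell receptor (TCR).

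AP-1 is a dimer of proteins with a basic region and a leucine zipper (bZIP). Fos proteins (Fos, Fosb, Fosl2) bind DNA only with a partner, usually a Jun protein (Jun, Junb, Jund), which can also pair with another Jun protein. In T cells, MAP kinase and protein kinase C signals below the TCR raise Fos and Jun activity, and AP-1 then acts with NFAT at cytokine genes. Batf lacks the activation domain of Fos, pairs with Jun proteins and acts with Irf4 or Irf8, and Atf3 is a stress-induced member of the ATF branch. Several of these genes are immediate early genes, whose transcripts also respond quickly to stress during the preparation of cells.

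The promoters of 5 members are shown, each of which holds at least 1 marked match. Of the members not shown, Atf3 also held TGACG, and Fosl2 and Jund held no match to any motif searched. Each is the 250 bases before the RefSeq start (GRCm38.p6), written 5′ to 3′ on the gene's strand. Fos lies at chr12:85473640-85473889 (plus strand), Fosb at chr7:19310046-19310295 (minus), Junb at chr8:84978749-84978998 (minus), Jun at chr4:95052223-95052472 (minus) and Batf at chr12:85686470-85686719 (plus). Capitals mark the core of the cyclic AMP response element (TGACG), the variant AP-1 site TGACATCA in Jun, and TATAAA in Fos.
Fos: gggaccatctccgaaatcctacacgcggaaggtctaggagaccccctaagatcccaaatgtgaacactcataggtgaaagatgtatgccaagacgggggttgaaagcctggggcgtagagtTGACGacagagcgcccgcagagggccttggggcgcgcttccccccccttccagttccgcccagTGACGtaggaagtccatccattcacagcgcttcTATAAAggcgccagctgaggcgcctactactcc
Fosb: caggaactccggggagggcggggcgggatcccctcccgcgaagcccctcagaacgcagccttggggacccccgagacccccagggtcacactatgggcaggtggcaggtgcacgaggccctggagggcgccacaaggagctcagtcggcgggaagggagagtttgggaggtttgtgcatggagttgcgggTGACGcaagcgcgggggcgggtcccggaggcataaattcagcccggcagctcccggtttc
Junb: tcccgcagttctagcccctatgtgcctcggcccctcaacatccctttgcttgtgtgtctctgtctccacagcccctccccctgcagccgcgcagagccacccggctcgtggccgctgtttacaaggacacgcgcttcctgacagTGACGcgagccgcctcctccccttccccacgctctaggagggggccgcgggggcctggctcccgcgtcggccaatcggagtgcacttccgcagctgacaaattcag
Jun: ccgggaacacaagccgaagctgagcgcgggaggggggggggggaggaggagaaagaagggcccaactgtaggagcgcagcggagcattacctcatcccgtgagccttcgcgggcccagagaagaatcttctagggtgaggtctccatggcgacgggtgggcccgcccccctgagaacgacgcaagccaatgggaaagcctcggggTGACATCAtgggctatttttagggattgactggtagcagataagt
Batf: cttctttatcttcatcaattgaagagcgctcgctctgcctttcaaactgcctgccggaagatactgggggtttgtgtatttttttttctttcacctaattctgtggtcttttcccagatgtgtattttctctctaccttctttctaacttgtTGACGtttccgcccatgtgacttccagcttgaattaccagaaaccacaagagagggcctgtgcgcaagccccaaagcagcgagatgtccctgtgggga
All 8 members matched a RefSeq promoter, and both strands were searched. TGACG and TGACATCA were added to the search after their matches were seen, so their shares are a description and no test. TGACG, which is also contained in the full element TGACGTCA, was found in 5 of the 8 members (Fos, Fosb, Junb, Atf3 and Batf), and in 17.8% of 32841 mouse promoters of this length. Fos held it at 129 to 125 and again at 66 to 62 bases before the start. Jun held TGACATCA at 45 to 38 bases before the start, a match present in 2.93% of promoters. Fos held TATAAA at 33 to 28 bases before the start, as did 12.4% of promoters at some place in the window. The AP-1 site TGANTCA (6.75% of promoters), the full TGACGTCA (1.55%) and the CArG box bound by serum response factor (1.47%) had no match in these windows of the members. Sites farther from the start were not searched. The window of Jund ends at 70697738, well before its GENCODE start at 70698949. The windows of Fosl2 (chr5:32136222-32136471) and Atf3 (chr1:191183334-191183583) lie inside their GENCODE genes. Those of Batf and Fosb overlap the GENCODE start.

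On GENCODE vM21 (GRCm38), Fos spans chromosome 12 from 85473890 to 85477273 and Batf the same chromosome from 85686669 to 85709087. Fosb lies on chromosome 7 (19302696 to 19310051), Fosl2 on chromosome 5 (32135801 to 32157842) and Atf3 on chromosome 1 (191170296 to 191218039). Junb (84974484 to 84978718) and Jund (70698949 to 70700616) lie on chromosome 8 and Jun on chromosome 4 (95049034 to 95052222). Jun and Jund have a single exon. Reads of Jun and Junos, of Junb and Prdx2, of Jund and Gm11175, and of Atf3 and Gm24748 cannot be told apart where these pairs overlap on opposite strands, because no source used here says whether counting used strand.

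The count table headers carry codes, and a group was read from a code only where the labels leave 1 reading. Only day 0 acetone, the GFP state at day 1 and the day 2 CD69+CD103+ sort could be read in this way, and the remaining libraries have neutral names. Day 1 arms I and II are acetone and TA in unknown order, and sets K, L and M are day 0 TA, day 6 acetone and day 6 TA in unknown order. Subsets U, V and W are the other day 2 subsets, and sets P, Q, R and S are day 11 and day 42 with acetone or TA. No effect of TA can therefore be stated. Library totals ran from 2442825 to 8515297 counts in the first experiment, with 22.2 to 36.7% on mitochondrial transcripts, and from 2937814 to 13629838 with 12.8 to 21.3% in the second. All 10 CD8 T cell markers in the tables were detected in every set (3 more, Trac, Trbc1 and Trbc2, were not analysed here). Nr4a1 was higher in GFP-positive than in GFP-negative cells at day 1, by 1.83 ± 0.13 on the log2 scale (edgeR adjusted p = 1.85e-08). GFP-negative cells were not without Nr4a1. It stood at 814 to 1343 CPM in those of day 1 and higher, at 1461 to 2371 CPM, in those of day 0 acetone. The row named eGFP, at 0.677 to 17.9 CPM over all libraries, did not pass the same test of GFP-positive against GFP-negative cells (0.83 ± 0.69, edgeR adjusted p = 0.508). Its arms went opposite ways. GFP-positive libraries held 9.70 to 17.9 against 1.47 to 5.79 CPM in arm I, and 5.21 to 9.33 against 9.92 to 11.1 CPM in arm II. Itgae, which encodes CD103, stood at 68.3 to 88.3 CPM in day 2 CD69+CD103+ cells, at 83.7 to 84.4 CPM in subset W and at 1.13 to 7.09 CPM in subsets U and V. Cd69 did not set the day 2 subsets apart in this way. It stood at 369 to 511 CPM in CD69+CD103+ cells, 401 to 423 in subset U, 349 to 377 in subset V and 470 to 474 in subset W. At day 1 Itgae was lower in GFP-positive cells, by -1.18 ± 0.19 on the log2 scale (edgeR adjusted p = 0.0002), although both were sorted as CD103+.

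Levels are CPM, the count over the library total, with no further scaling. Differences are given as log2 fold change ± SE (edgeR, quasi-likelihood F test) after TMM scaling, whose factors ran from 0.831 to 1.16 in the first experiment, so that a difference can depart from the ratio of the CPM beside it. A difference was called at an adjusted p under 0.05 (Benjamini-Hochberg over all genes). No label ties replicates to separate animals. A p-value here therefore reflects the spread of these libraries alone, which may be technical. In sorted bulk cells, fewer cells that express a gene and less RNA per cell cannot be told apart.

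The second experiment allowed the question of how CD69+CD103+ cells late after challenge (day 11 and day 42 together, 8 libraries) differ from those at day 2 (2 libraries). Day 2 cells were untreated, while every late library had acetone or TA, so time and treatment cannot be told apart here. All 3 Fos genes, Junb, Jund and Atf3 rose, and Batf fell. These 7 of 8 members compare with 8.21% of the 12236 genes tested. In the 2 directions, 6 members rose where 3.33% of genes did, and 1 fell where 4.89% did. Jun was the member that did not pass. The median log2 difference of the 8 members was 1.37, beside -0.07 over all genes.

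Among the Fos genes, Fosb rose most on the log2 scale. Fosb stood at 135 and 153 CPM in the day 2 CD69+CD103+ libraries. It stood at 717 and 626 in set P, 419 and 629 in set Q, 1727 and 1980 in set R, and 1668 and 1331 in set S. Every late library thus lay above every day 2 library, and the difference was 2.77 ± 0.17 on the log2 scale (edgeR adjusted p = 1.03e-08). Fos, the founding member, stood at 174 and 160 CPM at day 2. It stood at 477 and 405 CPM in set P, 324 and 287 in set Q, 1065 and 1124 in set R, and 1423 and 1156 in set S. The groups did not overlap, and the log2 difference was 1.97 ± 0.16 (edgeR adjusted p = 1.57e-07). Fosl2, which encodes Fra-2, stood at 128 and 166 CPM at day 2. Late it stood at 541 and 465 in set P, 519 and 570 in set Q, 915 and 960 in set R, and 957 and 848 in set S. Again no late library reached down to the day 2 range, with a log2 difference of 2.23 ± 0.15 (edgeR adjusted p = 3.04e-08). The fourth Fos gene, Fosl1, was close to absent, with 0 to 5 counts per set in the second experiment and 0 to 19 in the first.

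In the Jun family, Junb, a Jun protein that is itself strongly inducible, stood at 622 and 670 CPM in day 2 CD69+CD103+ cells. It stood at 2093 and 1344 in set P, 846 and 1276 in set Q, 2650 and 3411 in set R, and 2962 and 2234 in set S. All late libraries were higher, by 1.57 ± 0.24 on the log2 scale (edgeR adjusted p = 0.000327). Jund, the constitutive family member, stood at 1221 and 1154 CPM at day 2 and at 1858 to 2566 CPM over the 8 late libraries, without overlap (log2 0.84 ± 0.12, edgeR adjusted p = 0.000162). Jun stood at 342 and 458 CPM at day 2 and at 351 to 836 CPM late. The groups overlapped through set Q, and the log2 difference of 0.58 ± 0.20 did not pass (edgeR adjusted p = 0.0911).

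Atf3 and Batf went in opposite directions. Atf3 stood at 87.2 and 101 CPM at day 2, at 221 and 148 in set P, 102 and 132 in set Q, 280 and 368 in set R, and 346 and 264 in set S. The late libraries were all higher, set Q only just, and the log2 difference was 1.17 ± 0.20 (edgeR adjusted p = 0.000924). Batf stood at 76.0 and 82.5 CPM at day 2. It stood at 52.4 and 30.9 CPM in set P, 43.9 and 25.9 in set Q, 20.9 and 11.3 in set R, and 29.6 and 25.5 in set S. Every late library lay below the day 2 range, and Batf fell by 1.49 ± 0.26 on the log2 scale (edgeR adjusted p = 0.00114).

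**Figure D1:**
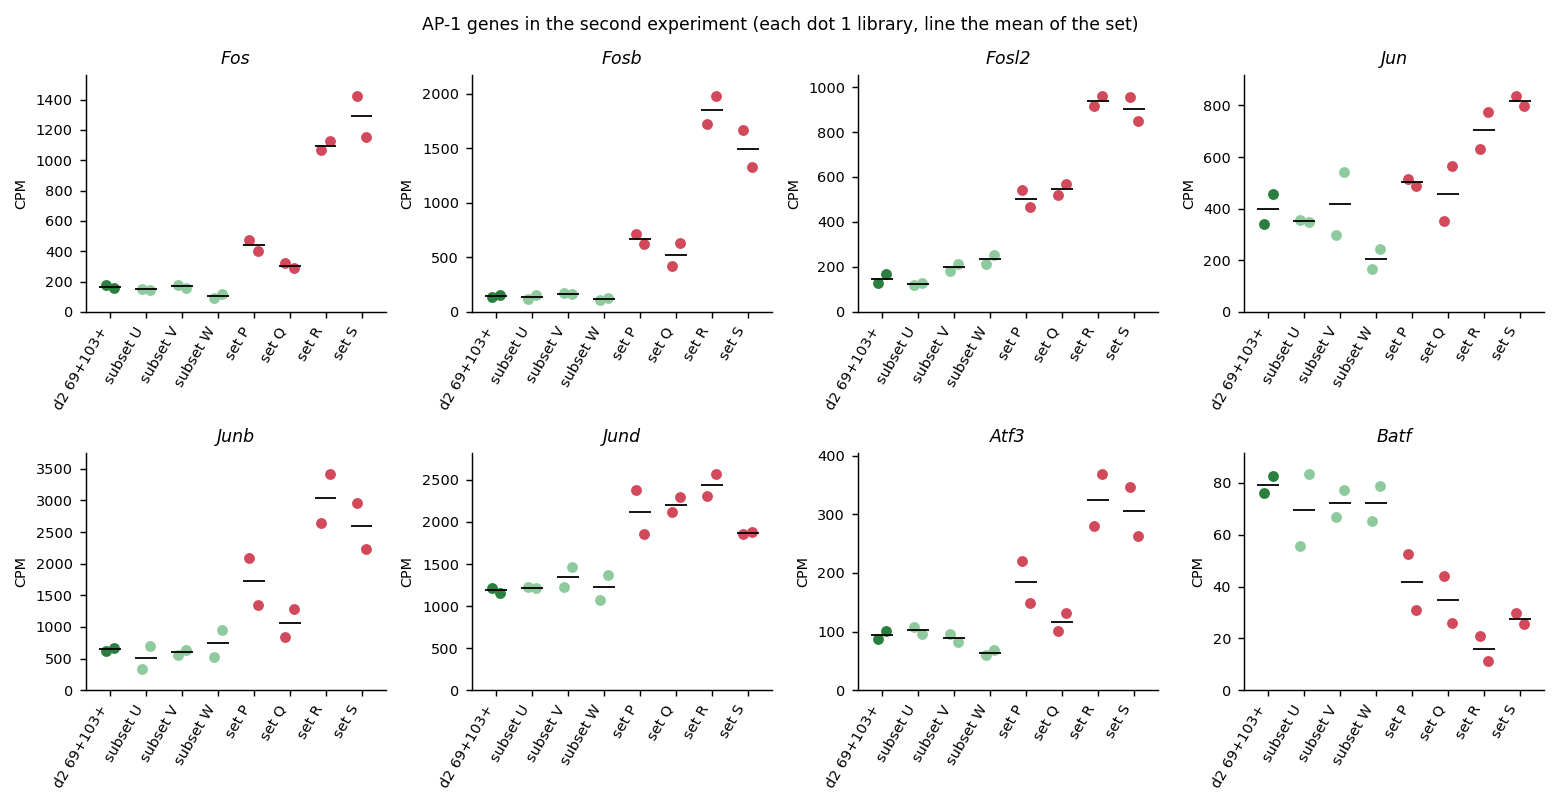
CPM of the 8 AP-1 genes in the 16 libraries of the second experiment, with sets on the horizontal axis, 1 dot per library and a line at the set mean. Fosb lies at 108 to 172 CPM in the day 2 libraries (green) and at 419 to 1980 CPM in the day 11 and day 42 sets (red), and Batf at 55.5 to 83.3 and 11.3 to 52.4 CPM.

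The summed level of 24 heat shock and dissociation genes moved with these differences. It was 10771 to 10812 CPM in day 2 CD69+CD103+ libraries, 16955 to 19002 in set P, 16446 to 16802 in set Q, 24880 to 27503 in set R and 17612 to 17925 in set S. Of the 24 genes tested, 10 rose and 0 fell late, with a median log2 difference of 0.38. The inducible chaperone genes Hspa1a (log2 1.77 ± 0.15) and Hspa1b (1.86 ± 0.12) were among them. The part of this list in the AP-1 differences was not tested. Set R had the highest heat shock sum. The mean of sets P, Q and S, whose heat shock sums also lay above those of day 2, differed from day 2 by 2.47 ± 0.17 on the log2 scale for Fosb and -1.23 ± 0.28 for Batf. Marker sums of other cells also differed. Neutrophil markers summed to 136 to 140 CPM at day 2 and 3.52 to 19.7 CPM late, and CD4 T cell markers to 564 to 696 and 42.9 to 330 CPM, with Cd4 itself at 0 in day 2 CD69+CD103+ cells. Keratinocyte markers summed to 6342 to 9614 and 2781 to 7407 CPM. All 5 mast cell markers were detected in set Q (26.2 to 49.5 CPM in sum) and none in sets P, R and S or in day 2 CD69+CD103+ cells. The part of these cells in the differences was not tested.

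**Figure D2:**
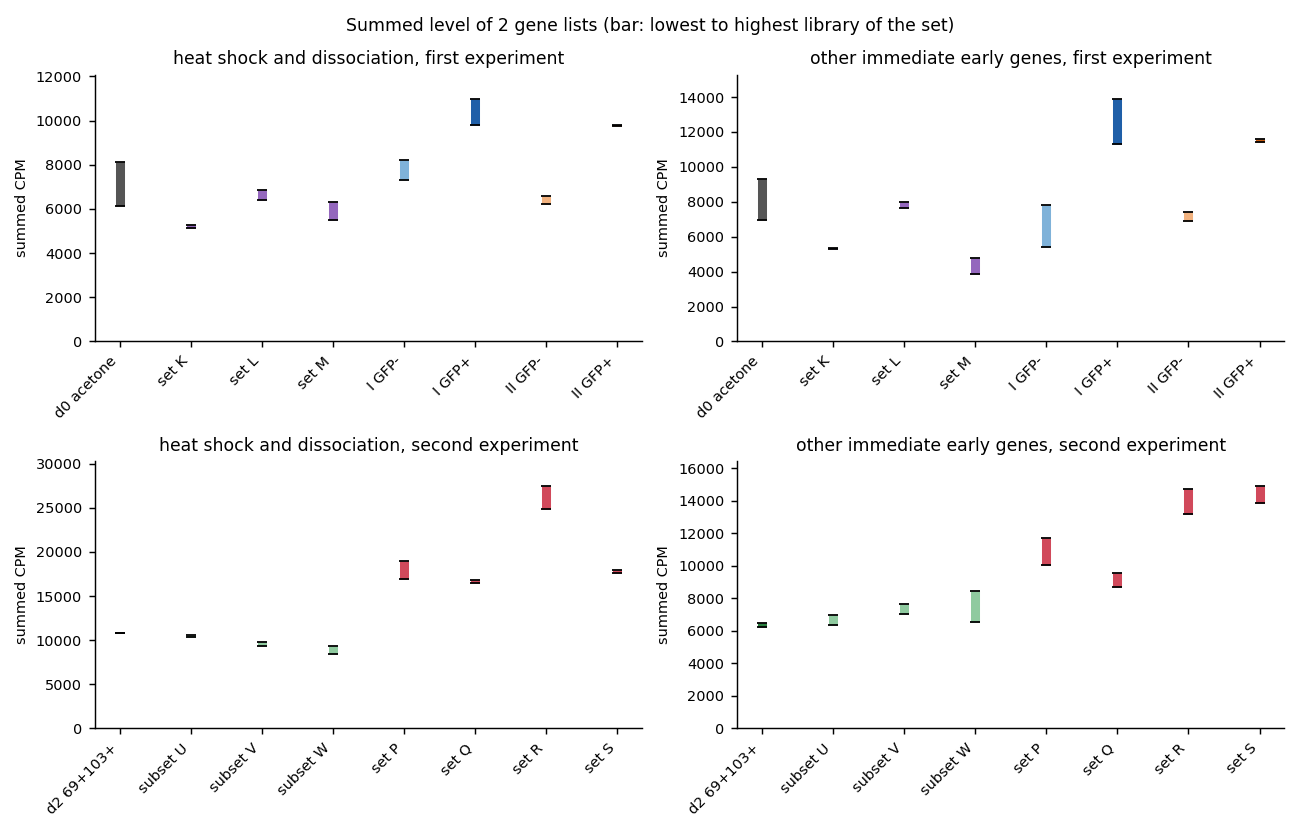
Summed CPM of the 24 heat shock and dissociation genes (left) and of the other immediate early genes (right) by set, each bar running from the lowest to the highest library, in the first (top) and second (bottom) experiment. In the second experiment the heat shock sum is 8408 to 10812 CPM at day 2 and 16446 to 27503 CPM at day 11 and day 42.

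The 4 late sets also differed among themselves. In a joint test, 5 members differed (Fos, Fosb, Fosl2, Junb and Atf3) where 2.12% of genes did. As a size, the span from the lowest to the highest fitted set is given. It was 1.89 on the log2 scale for Fos (edgeR adjusted p = 7.83e-06), 1.75 for Fosb (2.91e-05), 0.94 for Fosl2 (0.00821), 1.44 for Junb (0.0282) and 1.39 for Atf3 (0.00871). For all 5 genes both libraries of set R and both of set S lay above those of set P and set Q. This order describes the same values that gave the calls, and the share of all genes with it was not counted. Spans were 0.66 for Jun, 0.49 for Jund and 1.32 for Batf, with edgeR adjusted p of 0.271, 0.231 and 0.194. The Junb call was lost when set Q replicate 1, set R replicate 1, set R replicate 2 or set S replicate 1 was left out (edgeR adjusted p up to 0.162). Which of these sets are day 11 or day 42, and which had TA, was not used here.

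The 4 day 2 subsets were compared next. Between CD69+CD103+ cells and the mean of the other 3 subsets, edgeR called 0 members and DESeq2 called 0, where edgeR called 0.368% of genes (0.319% higher, 0.049% lower), and 2 members had an unadjusted p under 0.05. The log2 differences ran from -0.22 ± 0.14 for Fosl2 to 0.42 ± 0.20 for Jun. A joint test over the 4 subsets called 1 member, Fosl2, where 1.21% of genes were called, and DESeq2 called 3. Spans were 1.00 on the log2 scale for Jun (167 to 540 CPM over the libraries, edgeR adjusted p = 0.151), 0.68 for Fos (0.205) and 0.12 to 0.64 for Fosb, Junb, Jund, Atf3 and Batf, none of them called by edgeR. Fosl2 stood at 128 and 166 CPM in CD69+CD103+ cells, 118 and 129 in subset U, 182 and 215 in subset V, and 213 and 254 in subset W. Subset U and CD69+CD103+ cells overlapped at the low end and subsets V and W at the high end, with a span of 0.96 on the log2 scale (edgeR adjusted p = 0.0188). This call was lost without any single library of subset U or subset W (edgeR adjusted p up to 0.0725).

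In the first experiment, GFP-positive TRM at day 1 were compared with GFP-negative TRM to ask which AP-1 transcripts go with a recent TCR signal. In the mean of both arms (4 libraries against 4), Junb, Fosl2, Jund and Atf3 rose, and Fos and Fosb did not pass. These 4 of 8 members compare with 12.1% of 11588 genes called in either direction of which 5.59% were higher and 6.51% lower. The median log2 difference of the members was 0.55, beside -0.03 over all genes. Batf and Jun did not pass either.

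Fosl2 stood at 457 and 437 CPM in arm I GFP-positive and 516 and 397 in arm II GFP-positive libraries. In GFP-negative libraries it stood at 287 and 303 CPM in arm I and 253 and 278 in arm II. All 4 GFP-positive libraries lay above all 4 GFP-negative ones, by 0.82 ± 0.13 on the log2 scale (edgeR adjusted p = 0.000199). Fos, in contrast, stood at 324 and 278 CPM in arm I and 301 and 260 CPM in arm II GFP-positive libraries. Its GFP-negative libraries held 224 and 268 CPM in arm I and 343 and 412 CPM in arm II. The order was opposite in the 2 arms. The mean of the CPM was lower in GFP-positive cells (291 against 312 CPM) and the TMM-scaled difference was 0.06 ± 0.11 (edgeR adjusted p = 0.797), so no direction can be given. Fosb stood at 161 to 185 CPM in GFP-positive and 155 to 200 CPM in GFP-negative libraries, which overlapped. Here too the mean of the CPM (177 against 181 CPM) and the TMM-scaled log2 difference (0.10 ± 0.11, edgeR adjusted p = 0.666) differ in sign.

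Junb stood at 2691 and 1884 CPM in arm I GFP-positive against 1112 and 1410 in arm I GFP-negative libraries. In arm II it stood at 3483 and 3216 CPM against 1988 and 2105. Within each arm the groups did not overlap, and the difference was 0.92 ± 0.14 on the log2 scale (edgeR adjusted p = 0.000129). Jund stood at 1388 and 1108 CPM against 1421 and 1272 in arm I, which overlapped, with the lower mean in GFP-positive cells (1248 against 1347 CPM). In arm II it stood at 1651 and 1546 CPM in GFP-positive against 1068 and 763 CPM in GFP-negative libraries, without overlap. Its mean difference over the arms was 0.47 ± 0.11 on the log2 scale (edgeR adjusted p = 0.0049). Taken singly, only arm II was called for Jund. Jun varied widely between replicates, from 71.7 to 260 CPM in GFP-negative libraries, and did not pass (log2 0.40 ± 0.29, edgeR adjusted p = 0.438).

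Atf3 stood at 185 and 165 CPM in arm I and 155 and 149 in arm II GFP-positive libraries. It stood at 105 and 146 CPM in arm I and 90.1 and 125 in arm II GFP-negative libraries. All GFP-positive libraries were higher (log2 0.62 ± 0.17, edgeR adjusted p = 0.0185). The call was lost when replicate A of arm I GFP-negative, of arm I GFP-positive or of arm II GFP-negative cells was left out (edgeR adjusted p up to 0.0991). Batf, counted at 18 to 224 reads per library in this experiment, stood at 22.1 to 28.9 CPM in GFP-positive and 10.6 to 25.8 in GFP-negative libraries. These overlapped through 1 arm II GFP-negative library (log2 0.79 ± 0.35, edgeR adjusted p = 0.155).

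Within arm I, Fosl2 (0.76 ± 0.18) and Junb (1.02 ± 0.19) were called higher, where 5.36% of genes were called (2.33% higher, 3.03% lower). Leaving out any 1 of the 4 arm I libraries ended the Fosl2 call (edgeR adjusted p up to 0.124), and leaving out replicate A of either GFP state ended that of Junb (up to 0.0776). Within arm II, Fosl2 (0.88 ± 0.19), Junb (0.81 ± 0.19) and Jund (0.90 ± 0.15) were called higher, where 8.07% of genes were called (4.06% higher, 4.01% lower). The Fosl2 call was lost without arm II GFP-positive replicate A (edgeR adjusted p = 0.0693), and the Junb call without that library or either arm II GFP-negative one (up to 0.0787). The difference between the arms was itself tested. edgeR called 0 members, DESeq2 called 2, and 2 had an unadjusted p under 0.05, where edgeR called 0.889% of genes (0.639% higher, 0.25% lower in arm II). The widest differences were 0.86 ± 0.21 for Jund (edgeR adjusted p = 0.0687) and -0.78 ± 0.22 for Fos (0.113), as arm II minus arm I.

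**Figure D3:**
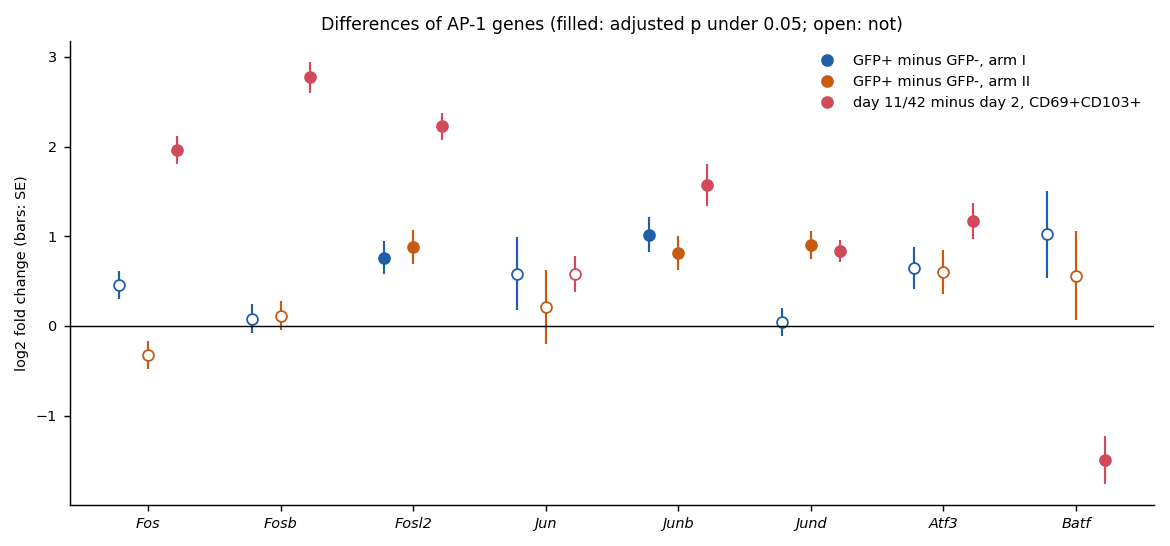
Log2 fold changes with SE bars of the 8 AP-1 genes for GFP-positive minus GFP-negative TRM at day 1 in arm I (blue) and arm II (orange), and for day 11 and day 42 minus day 2 CD69+CD103+ cells (red). Filled points passed an adjusted p of 0.05, among them Fosb at 2.77 and Batf at -1.49 in red and Junb at 1.02 and 0.81 in blue and orange.

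Heat shock genes were also higher in GFP-positive cells, with 10 of 24 called higher and 0 lower over both arms. Hspa1a (log2 0.91 ± 0.15), Hspa1b (0.67 ± 0.11), Hspa5 (1.28 ± 0.13), Hsp90ab1 (0.86 ± 0.08) and Hsp90aa1 (0.72 ± 0.10) led by p. Their sum was 9817 to 10987 CPM in arm I and 9755 to 9788 CPM in arm II GFP-positive libraries, and 7327 to 8203 and 6226 to 6593 CPM in GFP-negative ones. Keratinocyte markers went the other way in arm I, at 1628 to 2044 against 3305 to 3505 CPM, and overlapped in arm II (627 to 765 against 724 to 955 CPM). Of 16 mononuclear phagocyte markers tested over both arms, 5 were higher and 1 lower. They summed to 788 to 973 against 946 to 989 CPM in arm I and 349 to 406 against 106 to 138 CPM in arm II. CD8 T cell markers summed to 8272 to 8595 against 11442 to 11552 CPM in arm I and 7180 to 7570 against 6864 to 7297 CPM in arm II. Mitochondrial counts made up 22.4 to 25.9% of GFP-positive against 28.4 to 28.6% of GFP-negative libraries in arm I, and 29.3 to 30.1% against 35.8 to 36.7% in arm II. The part of these in the AP-1 differences was not tested.

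Arms I and II, of which 1 had TA and the other acetone, were then set against each other. In GFP-negative cells 3 members differed, where 6.69% of genes did (1.98% higher and 4.7% lower in arm II). Fos (0.57 ± 0.15, edgeR adjusted p = 0.0298) and Junb (0.65 ± 0.19, 0.0481) were higher and Jund (-0.61 ± 0.15, 0.0187) lower in arm II. The CPM ranges given above did not overlap for any of the 3. That describes the same values that gave the calls, and the share of all genes without overlap was not counted. In GFP-positive cells edgeR called 0 members and DESeq2 called 0, where edgeR called 3.17% of genes (0.923% higher, 2.24% lower), and 1 member had an unadjusted p under 0.05. The 3 calls in GFP-negative cells rested on single libraries. Fos lost its call without arm I replicate A or B or arm II replicate B (edgeR adjusted p up to 0.282) and with no low-count filter (0.0908). Junb lost it without any of the 4 (up to 0.391), and Jund without arm I replicate A or arm II replicate B (up to 0.216). Arm II libraries held 29.3 to 36.7% mitochondrial counts and arm I libraries 22.4 to 28.6%. Library totals were also smaller in arm II, at 2442825 to 3262545 counts against 5440609 to 8515297 in arm I. In GFP-negative cells, arm II had smaller marker sums than arm I for mononuclear phagocytes (106 to 138 against 946 to 989 CPM), neutrophils (12.7 to 14.7 against 104 to 116 CPM), keratinocytes (724 to 955 against 3305 to 3505 CPM) and CD8 T cells (6864 to 7297 against 11442 to 11552 CPM). The part of these in the differences between arms was not tested.

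Day 1 cells were next compared with day 0 acetone cells, and the 4 comparisons share the 3 day 0 libraries. In the arm with TA, which is not known, time and treatment cannot be told apart. GFP-positive day 1 cells also differ from day 0 cells in the GFP sort. Fosb fell in all 4 comparisons. It stood at 717, 528 and 621 CPM at day 0. At day 1 it stood at 155 to 200 CPM in all 8 libraries, none of which came near the day 0 range. Fosb fell by 1.47 ± 0.15 on the log2 scale in arm I GFP-negative cells, 1.73 ± 0.15 in arm II GFP-negative cells, 1.38 ± 0.15 in arm I GFP-positive cells and 1.62 ± 0.15 in arm II GFP-positive cells. The edgeR adjusted p were 4.31e-06, 3.33e-07, 1.59e-06 and 2.75e-07. Fos stood at 512, 398 and 520 CPM at day 0 and fell by 0.75 ± 0.14 in arm I GFP-negative cells (edgeR adjusted p = 0.00351) and by 0.50 ± 0.14 in arm II GFP-positive cells (0.0166). Its values for the other 2 groups were -0.18 ± 0.14 (arm II GFP-negative) and -0.29 ± 0.14 (arm I GFP-positive), neither called. The Fos call in arm I GFP-negative cells was lost without arm I replicate A (edgeR adjusted p = 0.0833), and that in arm II GFP-positive cells without its replicate B (0.138).

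Junb stood at 2371, 1456 and 2136 CPM at day 0. It rose by 0.58 ± 0.17 on the log2 scale in arm I GFP-positive cells (edgeR adjusted p = 0.0244) and by 1.02 ± 0.17 in arm II GFP-positive cells (0.000304). The GFP-negative values were -0.44 ± 0.18 and 0.21 ± 0.17, not called. Before TMM scaling the mean was 1988 CPM at day 0, 2287 CPM in arm I GFP-positive and 3349 CPM in arm II GFP-positive cells. The first of these rises overlapped the day 0 range and was lost without day 0 acetone replicate B or C or arm I GFP-positive replicate A (edgeR adjusted p up to 0.349), and with size factors by median of ratios (0.0534). Jund fell by 0.56 ± 0.14 in arm II GFP-negative cells (edgeR adjusted p = 0.0156), a call that was lost without arm II GFP-negative replicate B (0.222). Batf stood at 17.1, 12.2 and 8.31 CPM at day 0 and rose by 1.5 ± 0.44 in arm I GFP-positive cells (edgeR adjusted p = 0.0196). The corresponding value in arm II was 1.24 ± 0.44 (0.0565). The Batf call was lost without day 0 acetone replicate B or C or without either arm I GFP-positive library (edgeR adjusted p up to 0.13). Members called numbered 2 in arm I GFP-negative cells, where 3.94% of genes were called (2.78% higher, 1.16% lower). They numbered 2 in arm II GFP-negative cells (8.63%, with 3.48% higher and 5.15% lower), 3 in arm I GFP-positive cells (19%, with 9.92% higher and 9.07% lower) and 3 in arm II GFP-positive cells (18.9%, with 8.39% higher and 10.5% lower). Fosl2, Jun and Atf3 passed in none of the 4. Their largest log2 differences in size were -0.50 ± 0.17 for Fosl2, -0.92 ± 0.38 for Jun and -0.50 ± 0.22 for Atf3. Markers of other cells also moved between day 0 acetone and day 1. Keratinocyte markers summed to 4311 to 4730 CPM at day 0, 1628 to 3505 CPM in arm I and 627 to 955 CPM in arm II. Neutrophil markers summed to 10.0 to 24.6 CPM at day 0, 97.9 to 116 CPM in arm I and 12.7 to 41.1 CPM in arm II, and CD8 T cell markers to 12960 to 15279, 8272 to 11552 and 6864 to 7570 CPM. Their part in the AP-1 differences was not tested.

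Over the 4 GFP-negative sets of day 0 and day 6 (day 0 acetone and sets K, L and M), a joint test called 6 members, where 9.5% of genes were called. Fosb had the widest span, 2.35 on the log2 scale (edgeR adjusted p = 1.98e-08), from 98.3 and 120 CPM in set M to the day 0 acetone values, with 264 and 233 CPM in set K and 260 and 291 CPM in set L. Fos followed another order. It stood at 554 and 569 CPM in set K, above day 0 acetone, at 237 and 246 in set L and at 136 and 177 in set M (span 1.85, edgeR adjusted p = 1.52e-07). Fosl2 stood at 198 and 238 CPM in set K, 241 and 327 in set L and 113 and 94.8 in set M, against 466, 327 and 465 at day 0 acetone (span 1.84, edgeR adjusted p = 6.26e-06). Set M was thus the lowest set for each of the 3 Fos genes, while Fos and Fosb differed in which set was highest.

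Jund stood at 755 and 778 CPM in set K, 1311 and 1198 in set L, 1033 and 1001 in set M and 1716, 1372 and 1431 in day 0 acetone (span 0.81, edgeR adjusted p = 0.00434). Set K, the highest set for Fos, was the lowest for Jund. Junb stood at 1276 and 1428 CPM in set K, 1831 and 1871 in set L and 702 and 1221 in set M (span 0.90, edgeR adjusted p = 0.0128). Its call was lost without set M replicate A (edgeR adjusted p = 0.128). Atf3 stood at 77.0 to 107 CPM in sets K, L and M and at 222, 133 and 156 CPM in day 0 acetone (span 0.91, edgeR adjusted p = 0.0191), a call lost without day 0 acetone replicate A (0.168). Jun (span 0.99, edgeR adjusted p = 0.254) and Batf (0.74, 0.593) did not pass. Keratinocyte markers summed to 7743 to 8454 CPM in set M, 4311 to 4730 in day 0 acetone, 2040 to 2109 in set K and 1499 to 1531 in set L, and set K held 34.9 to 36.3% mitochondrial counts. Set K also had the smallest library totals of these sets, at 2560156 and 2952120 counts. The part of these in the AP-1 differences was not tested.

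**Figure D4:**
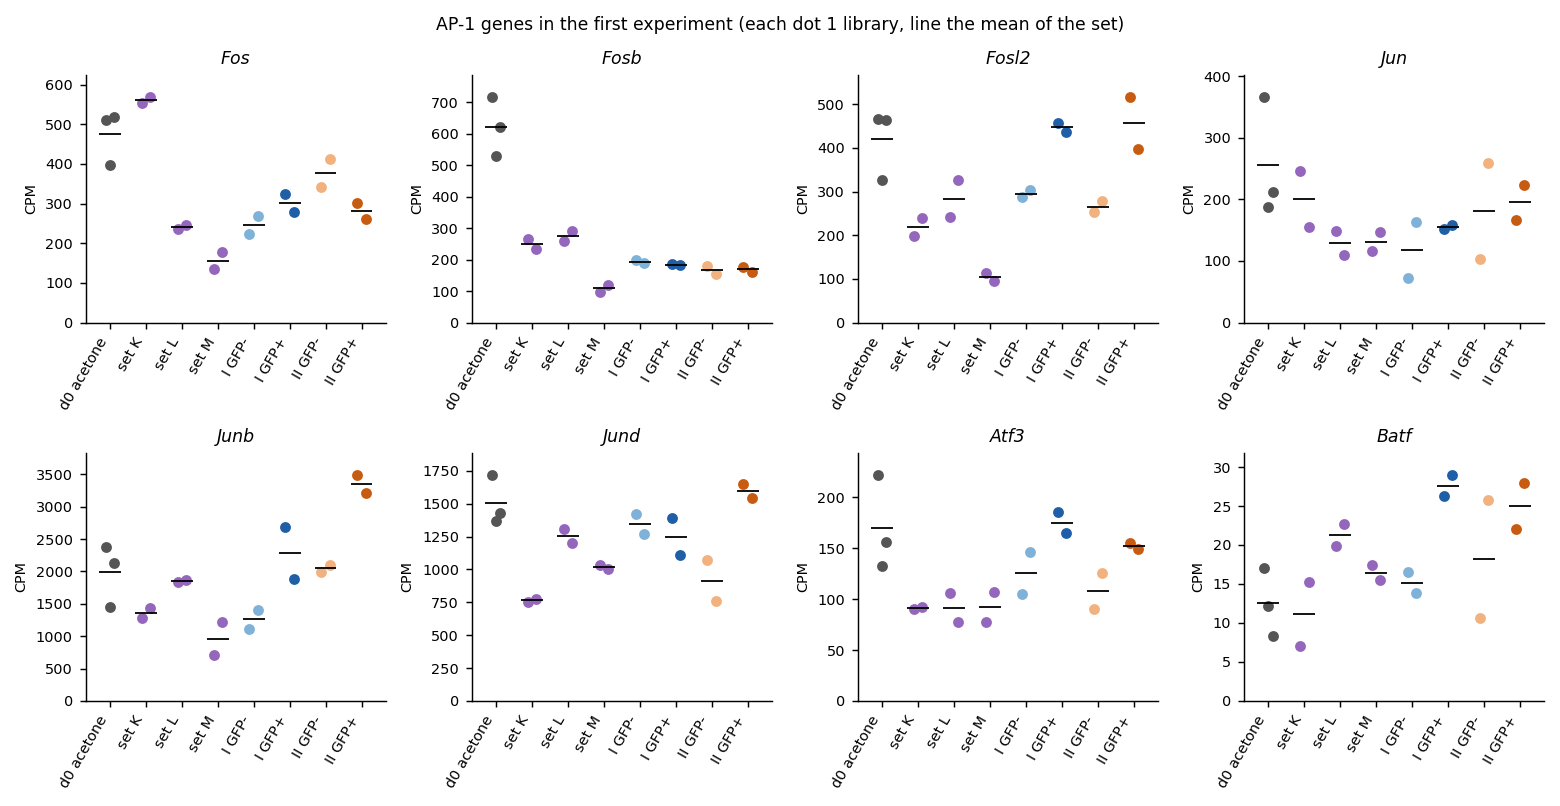
CPM of the 8 AP-1 genes in the 17 libraries of the first experiment, with sets on the horizontal axis (d0 is day 0, I and II the day 1 arms), 1 dot per library and a line at the set mean. Fosb lies at 528 to 717 CPM in day 0 acetone and at 155 to 200 CPM in the 8 day 1 libraries, while Junb reaches 3483 CPM in arm II GFP-positive cells.

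Across all 8 sets of an experiment, the highest set mean over the lowest was 15.6-fold for Fosb and 12.1-fold for Fos in the second experiment, and 5.70-fold and 3.59-fold in the first. For Fosl2 it was 7.59-fold in the second and 4.39-fold in the first, and for Junb 5.90-fold and 3.48-fold. Jund had the narrowest range in the second experiment (2.05-fold, and 2.09-fold in the first). Atf3 ranged over 5.08-fold and 1.93-fold, Batf over 4.93-fold and 2.48-fold, and Jun over 3.99-fold and 2.17-fold. In the order of set means of the second experiment, 6 of 7 neighbouring sets of Fos did not overlap in their libraries. Only the neighbours subset V and day 2 CD69+CD103+ did. For Batf in the first experiment, all 7 pairs of neighbouring sets overlapped. These are the members with the most and the fewest pairs without overlap. The order was made from these same values, and the share of all genes was not counted.

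Over the 8 set means of log2 CPM in the second experiment, Pearson's r was 0.98 between Fos and Fosb and 0.98 between Fos and Atf3. Batf correlated negatively with each of the other 7 members, from -0.78 with Jun to -0.96 with Fosb. In the first experiment r was 0.65 between Fos and Fosb, 0.84 between Fosl2 and Junb and -0.25 between Fos and Jund. Batf there ran from -0.51 with Fos to 0.56 with Junb. These are descriptions over 8 points that share library scaling within an experiment, and in the second experiment the points are 4 day 2 and 4 late sets.

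**Figure D5:**
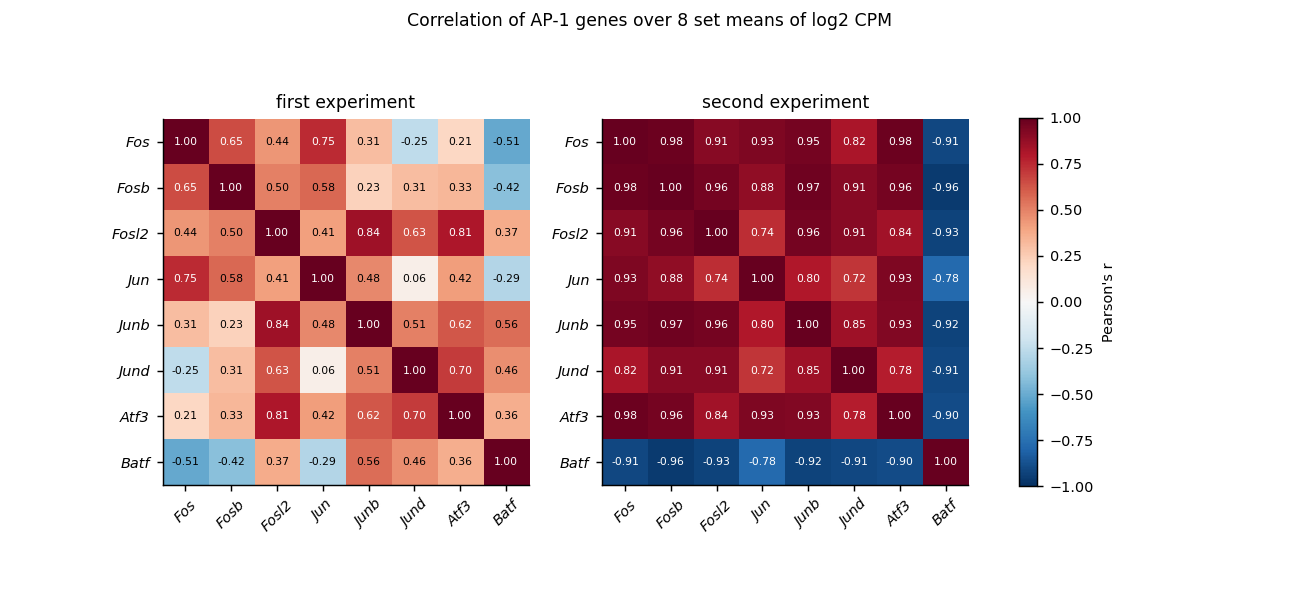
Pearson's r between the 8 AP-1 genes over the 8 set means of log2 CPM in the first (left) and second (right) experiment, red for positive and blue for negative. In the second experiment 7 genes correlate positively with one another and Batf negatively with all of them (-0.78 to -0.96), a pattern not seen in the first, where r with Batf runs from -0.51 to 0.56.

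The genes whose pattern was most like each member were found by the mean of both correlations (8 sets in each experiment) over 10546 genes. Nr4a1 (mean r 0.94) came first for Junb, followed by Pim3 (0.94) and Tob2 (0.92). Egr1, an immediate early transcription factor gene, came first for Atf3 (0.95), followed by Midn and Dos (0.89 each). Crem, a bZIP gene of the cyclic AMP response, came first for Fosl2 (0.95), with Tgoln1 (0.95) and Ddx3x (0.94) next. For Batf they were Camk4, a calcium-dependent kinase gene (0.94), Kdm2b and Zswim7 (0.91 each). Fos was most like Jmy, Ddx50 and Chd6 (0.89 to 0.87), and Fosb most like Spns2, Ndel1 and Cwc25 (0.89 to 0.88). Jund was most like Hspa2, Rgs2 and Cdkn1a (0.91 to 0.87), and Jun most like Exoc6b, Ivd and Ccno (0.81 to 0.79).

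Other genes of the pathway were followed in lists, whose counts are to be read against all genes tested. Of these, 12.1% were called over both arms (5.59% higher, 6.51% lower) and 8.21% late (3.33% higher, 4.89% lower). Of 36 tested genes that feed MAP kinase signals to AP-1, 2 rose and 2 fell in GFP-positive cells over both arms (median log2 difference 0.05), a share no larger than that of all genes. Mapkapk2 (log2 1.72 ± 0.19) and Map2k3 (1.36 ± 0.19), kinases of the p38 branch, rose. Mapk3, which encodes Erk1 (-1.14 ± 0.22), and Mapk14, which encodes p38 alpha (-0.87 ± 0.24), fell. In the late against day 2 comparison 1 of 36 rose and 1 fell, again no larger a share than that of all genes, and none of these 4 genes was called. Of 18 tested genes that damp MAP kinases, 2 rose in GFP-positive cells (the phosphatase genes Dusp2, 2.07 ± 0.16, and Dusp4, 1.27 ± 0.37) and Dok2 fell (-1.05 ± 0.24), a share near that of all genes. Late, 3 of 19 rose and 0 fell, with Dusp2 at -0.45 ± 0.15 and Dusp4 at -0.93 ± 0.30, neither called.

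Of 33 other immediate early genes tested, 14 rose and 0 fell in GFP-positive cells (median log2 0.89). Gadd45b (2.30 ± 0.14), the orphan receptor genes Nr4a2 (2.43 ± 0.18) and Nr4a1, the NF-kappaB inhibitor gene Nfkbia (0.94 ± 0.12) and Rel (3.31 ± 0.43) led by p. In the late comparison 17 of 32 rose and 1 fell (median 0.82). Nr4a2 (2.19 ± 0.29), Nr4a1 (1.63 ± 0.16) and Nfkbia (0.60 ± 0.13) rose there too, while Gadd45b (-0.40 ± 0.20) and Rel (-0.27 ± 0.27) were not called. Fos and Fosb were called late and not in the GFP comparison. The difference between these 2 comparisons, which come from separate experiments, was not tested.

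Of 12 NFAT and IRF partner genes tested, Irf4 (3.71 ± 0.51), Irf8 (2.43 ± 0.46) and Nfatc1 (1.79 ± 0.24) rose and Irf1 (-0.80 ± 0.22) fell in GFP-positive cells. Irf4 stood at 54.4 to 69.6 CPM in arm I and 25 to 31.3 CPM in arm II GFP-positive libraries, and at 1.19 to 7.72 CPM in GFP-negative ones. In the late comparison 0 rose and 3 fell. Irf4 (-1.13 ± 0.28) and Irf8 (-2.54 ± 0.43), the partners of Batf, were among these. Irf4 stood at 86.1 to 91.7 CPM at day 2, 87.9 to 94.0 CPM in set P, 64.4 to 84.6 in set Q, 25.6 to 42.5 in set R and 5.79 to 17.0 in set S, so set P was not below day 2. Irf8 stood at 102 to 138 CPM at day 2 and 5.13 to 49.9 CPM over the 4 late sets. Nfatc1 (-0.14 ± 0.21) was not called late. Of the other bZIP genes, 5 of 33 were higher and 2 lower in GFP-positive cells over both arms (median 0.32), and 10 of 31 rose and 2 fell late (median 0.29). Maff rose in both (0.80 ± 0.23 and 2.56 ± 0.22), as did Crem (0.47 ± 0.14 and 2.19 ± 0.20), whose GFP states overlapped in arm I. Nfe2l2 fell in GFP-positive cells (-0.58 ± 0.17) and rose late (1.61 ± 0.37). Xbp1, of the unfolded protein response, rose in GFP-positive cells (0.91 ± 0.18) and stood at -0.05 ± 0.17 late. Atf5 was called over both arms (1.91 ± 0.59), but its arms went opposite ways, with 18.2 to 19.2 CPM in GFP-positive against 22.6 to 40.1 in GFP-negative cells in arm I and 19.6 to 28.7 against 0 to 2.46 CPM in arm II. It was not called late.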

How the data were processed

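RNA was measured by CEL-seq2, a method that tags the 3′ ends of transcripts, in 33 libraries of CD8 T cells in 16 sorted groups. The authors deposited whole-number read counts per gene. The submitters' processing notes list bcl2fastq 2.2, BWA 0.7.15, HTSeq and the build GRCm38. Collapsing by molecular barcode is stated in no source used here. Spike-in (ERCC) rows, 0 to 16 counts per library, were left out.

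The test was edgeR 4.0.16 under R 4.3.3 (filterByExpr by set, TMM, robust quasi-likelihood F test), with 1 mean per set and all libraries of an experiment in the fit. Differences that need unnamed groups were tested jointly. DESeq2 1.42.0, other scaling, no filter, no mitochondrial transcripts, a replicate block and leaving out each library were alternatives. Scripts were tested on simulated data. The text names all members, Nr4a1, Itgae and Cd69 as checks of the sorts, the 3 genes most like each member, and from each list up to 5 called genes by smallest p in the GFP comparison. Fosl1 and eGFP were added after their values were seen, as were the motifs TGACG and TGACATCA and the late comparisons without set Q or R. Members and lists were chosen with earlier results of these data known. Figures were drawn with matplotlib 3.10.9.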

Additional observations from a re-analysis of the deposited data

How the results depend on the processing

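Each comparison was repeated with size factors by median of ratios, with no low-count filter, without mitochondrial transcripts, with DESeq2, with each library left out and, in the first experiment, with a replicate block. For the 41 calls of a member, 492 alternative values were obtained (2 alternatives were chosen after seeing the data). Of these, 443 kept the call, 49 lost it, and 0 changed direction. A joint test gives a span without direction, so the values of its calls could not change direction. All calls of Fosb, and all member calls of the late against day 2 comparison, were kept under every alternative run.

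The number of members that differed in the GFP difference between arms, 0, became 1 with size factors by median of ratios, 1 with no low-count filter, 1 with the replicate block and 2 with DESeq2. For arm I GFP-negative day 1 cells against day 0 acetone, 2 became 4 with no low-count filter. For the day 2 subsets, 1 became 2 with no low-count filter and 3 with DESeq2. The cause was not tested. No pairing by replicate letter was seen, as the deviations of the 56 same-letter pairs correlated at -0.076 to 0.054. Where both sets hold 2 libraries, letters A and B give the same value by construction, so these pairs are not all independent. Whether a letter marks a shared animal or sort is not stated in the labels. With the replicate block, arm I GFP-positive against day 0 acetone went from 3 to 1 members. That block ended the calls of Junb and Batf there (edgeR adjusted p = 0.0597 and 0.0937), of Junb between arms in GFP-negative cells (0.0801), of Fos in arm II GFP-positive cells against day 0 acetone (0.0638) and of Junb over the day 0 and day 6 sets (0.0515), and no other member call. Late against day 2, 7 members were called without set Q and 7 without set R.

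With 1 library left out in turn, the members called ranged from 3 to 5 in the GFP comparison over both arms, 0 to 2 in arm I, 1 to 3 in arm II and 0 to 1 in the difference between arms. Between arms they ranged from 0 to 3 in GFP-negative cells and stayed at 0 in GFP-positive cells. Against day 0 acetone they ranged from 1 to 2 and from 1 to 3 in arm I and arm II GFP-negative cells, and from 1 to 4 and from 2 to 4 in GFP-positive cells. They ranged from 5 to 6 over the day 0 and day 6 sets, 0 to 2 over the day 2 subsets, 7 to 8 late against day 2 and 4 to 5 among the late sets, and stayed at 0 for day 2 CD69+CD103+ cells. Where an arm kept 1 library, that library was assumed to vary like the others.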
